A study of Gallus gallus with 30 samples.

Results

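The granulosa cell layers of the 5 preovulatory follicles of the hen, from the smallest (F5) to the largest (F1), were followed as one ordered sequence. These are 15 of the 30 libraries of a study of follicle development, 3 for each of F5, F4, F3, F2 and F1, chosen by their labels alone. All came from Luhua hens at 31 weeks of age with no treatment labelled, and the labels set the groups apart by follicle rank alone. The libraries of a stage are described as biological replicates, and whether each holds 1 hen or follicles of several hens is not stated. The p-values therefore measure the spread between these libraries. RNA was depleted of rRNA and sequenced in strand-specific libraries, and the level of each gene was given in FPKM, a fragment number normalised to transcript length and to the mapped fragments of the library. Of 23910 genes in the data, 12510 had an FPKM over 0.5 in at least 2 libraries of one of these stages and were kept. Of the 23910, 5293 were at 0 in all 15 libraries.

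In the laying hen the preovulatory follicles stand in a hierarchy of size, and the F1 follicle is the next to ovulate. The granulosa layer lies between the oocyte and the vascularized theca. Its cells secrete components of the inner perivitelline layer, the egg coat that the sperm meets. As a follicle approaches ovulation, granulosa cells are known to become a main source of progesterone and to respond to luteinizing hormone. The genes that could be tied to an identifier of the data and are reported here number 35, 31 of them with a symbol. All were picked by the study because they were among the 100 highest genes at every stage, in these same libraries. They are therefore not independent evidence of a direction. Of 21 lists of pathways and cell types, 13 had no gene with a known identifier, among them the genes of steroid synthesis, gonadotropin signalling, ovulation and the cell cycle. The markers of theca, endothelium, red blood cells, immune cells and oocyte were also among these, and the content of other cells in the layers could not be measured. Of 14 granulosa markers 1 could be read, ZP3, which was among the most abundant transcripts at each stage. In these bulk samples fewer cells of a type and less RNA per cell cannot be told apart.

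The libraries followed the rank of the follicle along the first principal component of log2(FPKM + 1), which held 56.5% of the variance (54.8% after scaling each library to its upper quartile). The scores were -55.2, -67.1 and -45.6 in F5 and -47.6, -64.3 and -14.5 in F4. They were -21.0, 37.6 and 10.0 in F3, 15.4, -0.6 and 65.9 in F2, and 59.3, 63.0 and 64.4 in F1. The F5 and F1 libraries lay at opposite ends, and single libraries of the stages between them ran ahead of their own rank or behind it. The third F2 library had a mean Spearman correlation of 0.961 with the F1 libraries and of 0.918 with the other F2 libraries. The second F3 library had 0.954 with F2, 0.952 with F1 and 0.934 with the other F3 libraries. In the other direction, the first F3 library had 0.944 with F5 and 0.938 with the other F3 libraries. The second F2 library had 0.953 with F3 and 0.938 with the other F2 libraries. Results that turn on the third F2 library are given with and without it. Of the 15 libraries, 5 had a Q30, the share of high-quality base calls, above 93 in the study's library table: the third of F4, F3 and F2, and the second and the third of F1. F5 had none, and this difference in sequencing moves with rank in part.

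**Figure D1:**
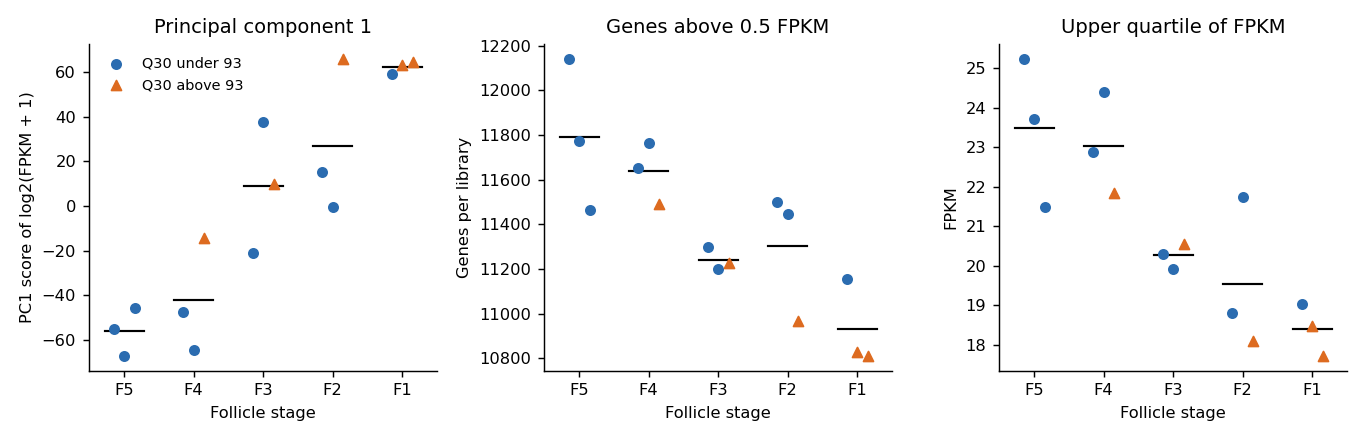
Score on the first principal component, number of genes above 0.5 FPKM and upper quartile of FPKM (in FPKM, over the genes kept) of each of the 15 libraries by follicle stage. Points are libraries, with triangles for those with Q30 above 93, and bars are stage means; the score climbs from F5 to F1 while the other quantities fall, from means of 11793 to 10932 genes and from 23.5 to 18.4 FPKM.

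Fewer genes were measured above the limit toward F1, and the most abundant genes took a larger share. The libraries had 11793 ± 338 genes above 0.5 FPKM in F5 (SD, n = 3), 11637 ± 138 in F4 and 11241 ± 50.9 in F3. The later stages had 11304 ± 293 (F2) and 10932 ± 195 genes (F1). The slope was -206 genes per rank (permutation test over the 15 libraries, adjusted over 5 quantities, p = 0.00062). The 100 genes with the highest level took 45.3% ± 3.87 of the summed FPKM in F5 and 55.7% ± 1.78 in F1, with a slope of 2.83 percentage points per rank (adjusted permutation p = 0.00063). The upper quartile of FPKM fell from 23.5 ± 1.88 in F5 to 18.4 ± 0.663 in F1 (adjusted permutation p = 0.0005). The summed FPKM increased from 507175 ± 17949 to 556553 ± 4998 (adjusted permutation p = 0.005), and this slope was not called without the F1 libraries (adjusted permutation p = 0.144). The share of the mitochondrially encoded genes did not pass the test, with 22.2% ± 2.98 in F5 and 21.2% ± 0.724 in F1 (adjusted permutation p = 0.578). It sums 16 genes, 13 of them with a symbol. Since the distribution of FPKM itself moved with rank, the main results below are given as deposited and after dividing each library by its upper quartile.

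A slope of log2(FPKM + 1) on rank was fitted to each gene with limma and is given as the fitted log2 change from F5 to F1. Fits that lack F5 or F1 libraries give their slope over the same 4 rank steps, so their changes extend past the stages measured. Calls required both an adjusted p below 0.05 and a fitted fold of FPKM + 1 above 1.5. By this rule 1201 genes rose (9.6% of those tested) and 4091 fell (32.7%), so that 42.3% of genes were called and 77.3% of the calls were decreases. The median change over all genes was -0.37. After upper-quartile scaling this median was -0.08, 1902 genes rose (15.2%) and 2431 fell (19.4%), or 34.6% in all, and 56.1% of the calls were decreases. The excess of falling genes thus depended on the scaling, while 1198 genes rose (9.58%) and 2431 fell (19.4%) under both and 0 were called in opposite directions. The scaling moved fitted changes by much less than a call in the opposite direction needs, so nothing is read from this 0. Without the third F2 library, 1124 genes rose and 3816 fell (1753 and 2234 after scaling).

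**Figure D2:**
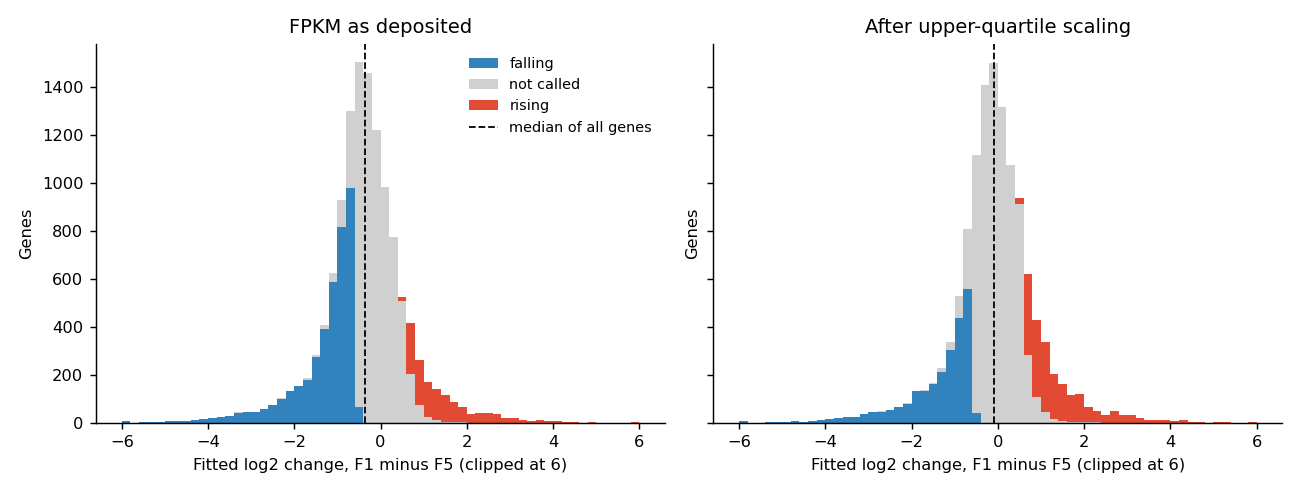
Distribution of the fitted log2 change from F5 to F1 over the 12510 genes, as deposited and after upper-quartile scaling. Bars are stacked counts of genes in bins of the change, colours give the call, changes beyond 6 are drawn at 6 and the dashed line is the median of all genes; scaling moves the median from -0.37 to -0.08 and evens the falling and rising sides.

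The rising genes had a median fitted log2 change of 1.26 (quartiles 0.90 and 1.84), and 254 of the 1201 rose by more than 4-fold. Their stage means increased at each of the 4 steps in 405 (33.7%), against 3.70% of all genes. The falling genes had a median of -1.05, 639 of the 4091 changed by more than 4-fold, and the stage means decreased at each step in 1811 (44.3%), against 16.3% of all genes. In 1055 rising and 3763 falling genes the F5 and F1 libraries did not overlap, beside 51.1% of all genes tested. These counts describe genes that the same libraries had selected.

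Few genes were called between neighbouring stages and many between the ends of the hierarchy. In a limma fit with 1 mean per stage, 0 genes were called between F5 and F4 (313 at an unadjusted p under 0.05, 2.50%). Between F4 and F3, 0 were called (2504 unadjusted, 20.02%), and between F3 and F2 0 were called (1185, 9.47%). Between F2 and F1, 5 genes were higher and 1 was lower in F1, 0.048% of genes (1920 unadjusted, 15.3%), none of them with a symbol. The direct contrast of F1 with F5 called 1042 genes higher and 3686 lower, together 37.8% of genes. After upper-quartile scaling the 4 steps gave 0, 0, 0 and 7 genes.

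Over the genes called under both scalings the median moved at every step, by unequal amounts, although most single genes did not move in 1 direction throughout. These genes had been chosen by their slope over the same stages. Their median log2 steps in stage means, from F5 to F4, F3, F2 and F1, were 0.16, 0.43, 0.24 and 0.38 in the rising genes. In the falling genes they were -0.17, -0.43, -0.23 and -0.28. After scaling they were 0.15, 0.45, 0.24 and 0.36 in the rising and -0.18, -0.47, -0.22 and -0.31 in the falling genes. With all 15 libraries the largest median step of both sets lay between F4 and F3, and the smallest between F5 and F4. These set medians were not taken without the third F2 library. Over all genes the median step between F4 and F3 was -0.16 with or without that library. Between F2 and F1 the median of all genes was -0.12 with it and -0.19 without it, so the place of their largest step turned on that library. Departure from a straight line, tested by limma over the 3 remaining contrasts of stage, was called in 0 genes as deposited (904 at an unadjusted p under 0.05, 7.23%). It was called in 0 after scaling as well (1045 unadjusted, 8.35%).

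Single libraries set how many genes were called at a step. Without the third F2 library the F2 to F1 step called 370 genes higher and 715 lower in F1, and the F4 to F3 step called 61. In the same fit 96 genes departed from a straight line. Without the third F4 library the F4 to F3 step called 59 genes higher and 228 lower in F3. Without the first F3 library it called 46 higher and 225 lower, and without the third F5 library 77. Without the first F1 library 31 genes were called between F2 and F1. The third F2 and the third F4 libraries, with the highest scores of their stages, sat beyond the other libraries of those stages along the first component.

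The gene with the largest change among those with a symbol was ZP3 (ENSGALG00000001559, chromosome 10), a zona pellucida glycoprotein that granulosa cells of birds deposit in the inner perivitelline layer. Its level was 15512, 9385 and 13411 FPKM in the F5 libraries and 12824, 11522 and 25729 in F4. It was 17364, 52493 and 33161 FPKM in F3, 45602, 29862 and 90654 in F2, and 61147, 67865 and 79014 in F1. Each F1 library was above each library of F5, F4 and F3, while the highest value of all was in the third F2 library. The means were 12769 ± 3114 FPKM in F5 and 69342 ± 9025 in F1 (SD, n = 3), a ratio of 5.43. The fitted log2 change was 2.64 (SE 0.49, limma adjusted p = 0.000456), and 3.02 after upper-quartile scaling (adjusted p = 0.000679). Quantile normalization, which gives the top ranks of all libraries the same values, left a change of 1.305 (limma adjusted p = 0.0169). None of its single steps passed the test. With no filter on low values its adjusted p was 1.0 at the same change (SE 8.51). This rested on the SE alone, which limma lets depend on the level of expression. Over genes with a mean above 1 FPKM the SE was 0.41 (limma adjusted p = 0.000102). With no such dependence on level it was 0.37 (limma adjusted p = 5.59e-05). In the 10 libraries with Q30 under 93 the change was 2.38 (limma adjusted p = 0.0213), and in the 5 above 93 it was 2.17 (adjusted p = 0.281).

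ZP3 also took a growing part of all transcripts. It held from 1.88% to 3.14% of the summed FPKM in the F5 libraries and from 11.0% to 14.1% in F1, with 16.6% in the third F2 library. In 4 of the 5 stages the library with the highest score on the first component also had the most ZP3. The genes rising under both scalings together held from 8.74% to 12.2% of the summed FPKM in F5 and from 35.4% to 37.3% in F1. Without ZP3 these ranges were 6.86% to 9.67% and 22.3% to 26.29%. The genes falling under both held from 12.6% to 16.4% in F5 and from 3.79% to 4.04% in F1. Both sets were chosen by their slope over these same libraries, so the direction in which their shares moved is built in.

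The largest increases of all belonged to genes without a symbol. Among 803 rising and 1725 falling genes that were called under both scalings, reached a mean of 5 FPKM in F5 or F1 and had no overlap between those stages, the pair with the largest change on each side is given. ENSGALG00000002771 had 5.12, 0.9 and 2.45 FPKM in F5, 1.09, 0.72 and 8.18 in F4, 3.46, 108 and 52.7 in F3, 10.7, 9.81 and 228 in F2, and 408, 184 and 415 in F1. It was low in all F5 and F4 libraries and high in all of F1, and the stages between them were mixed. Its fitted log2 change was 6.53 (SE 1.12, limma adjusted p = 0.000244; 6.83 after scaling). ENSGALG00000010005 rose from 1.3, 0.0504 and 0.155 FPKM in F5 to 88.9, 117 and 92.9 in F1, with 70.8 in the second F3 library against 5.79 and 22.4 in the others. Its log2 change was 6.39 (SE 0.77, limma adjusted p = 2.22e-05).

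The largest decreases began from moderate levels and ended near 0. ENSGALG00000041708 had 491, 538 and 156 FPKM in F5, 180, 612 and 48.9 in F4, 16.3, 4.56 and 4.19 in F3, 2.89, 8.6 and 1.71 in F2, and 1.23, 2.28 and 3.21 in F1. The drop fell mainly between F4 and F3, where the libraries no longer overlapped. Its fitted log2 change was -7.53 (SE 0.90, limma adjusted p = 2.15e-05; -7.21 after scaling), and it was not called in the 5 libraries with Q30 above 93 alone (-4.25, adjusted p = 0.0954). ENSGALG00000026808 had 171, 225 and 92.9 FPKM in F5, 106, 168 and 21.2 in F4, 35.3, 1.31 and 8.32 in F3, 6.95, 19 and 0 in F2, and was listed at 0, 0 and 0.407 in F1. Its log2 change was -7.19 (SE 0.91, limma adjusted p = 2.59e-05). In all 4 of these genes the third F2 library lay on the F1 side of the other F2 libraries, as did the second F3 library in its stage except for ENSGALG00000041708.

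Of the 31 genes with a symbol, 2 rose, 3 fell and 26 were not called, against 9.6% rising and 32.7% falling of all genes. After upper-quartile scaling the same 2 rose and 0 fell. Genes from 100 to 1000 FPKM rose in 20.5% and fell in 20.9%, and those over 1000 FPKM in 25% and 20.5%. A place among the 100 highest at every stage also selects against large falls, so nothing is read from the small number of calls. The 3 decreases were smaller under upper-quartile and median-of-ratios scaling and called under neither. Under quantile normalization SPARC (-1.30, limma adjusted p = 0.00132) and CTSB (-0.62, limma adjusted p = 0.0495) were called, and EIF4A2 (-0.54) missed the fold required. None of these 3 calls was made in the libraries with Q30 under 93 alone, with Q30 above 93 alone or without F5. Each of these changes is a slope over 4 rank steps. With Q30 above 93 alone and without F5 it reaches past F4 to a stage not in the fit, and the fold rule was applied to it. On that scale several of the changes were as large as in the full fit or larger. Without the stage F1, EIF4A2 was called (-0.93, limma adjusted p = 0.035), and SPARC (-0.77) and CTSB (-0.52) were not. In the libraries with Q30 under 93, with Q30 above 93 and without F5, the log2 changes were -0.67, -1.15 and -1.12 for SPARC, -0.18, -0.72 and -0.72 for CTSB, and -0.70, -0.34 and -0.58 for EIF4A2.

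**Figure D3:**
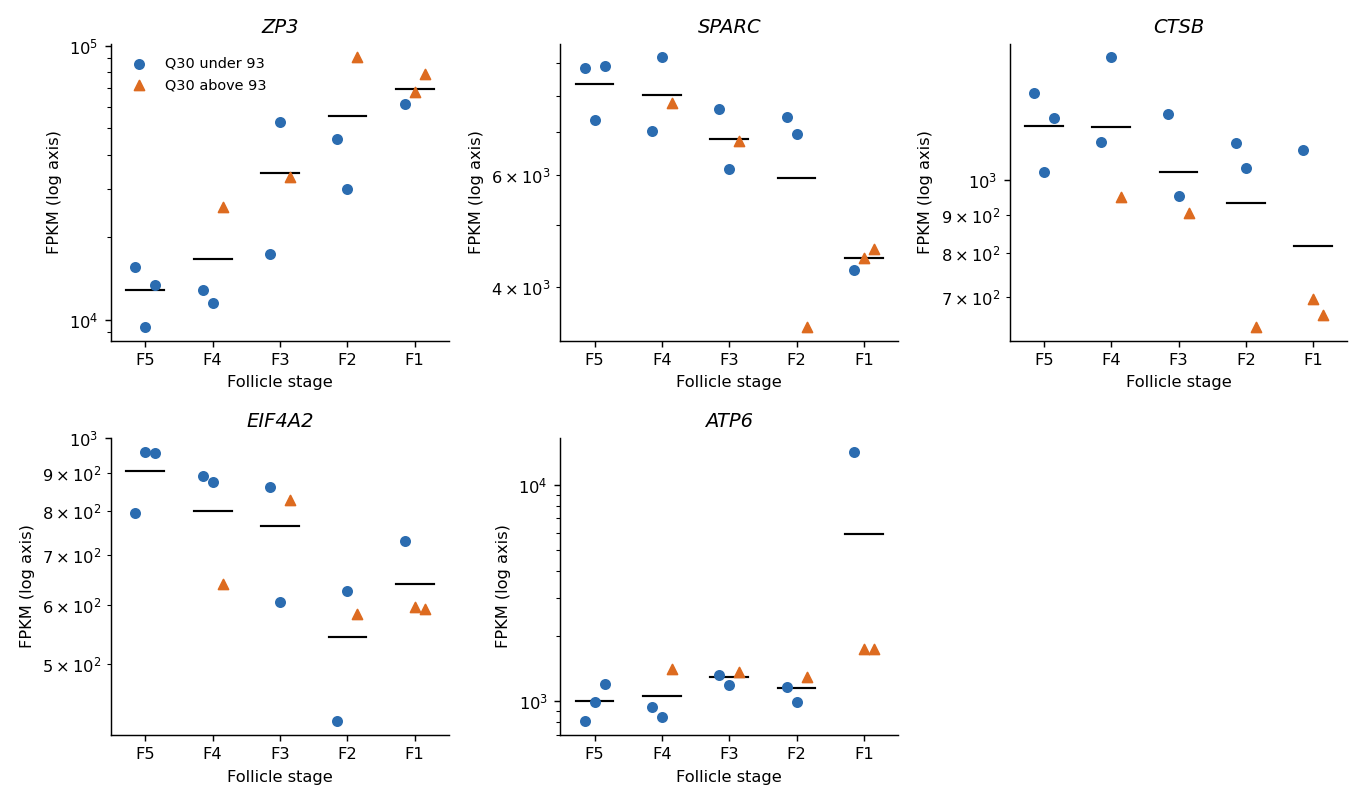
FPKM (log axis) of the 5 called genes with a symbol in each of the 15 libraries by follicle stage. Points are libraries, triangles those with Q30 above 93, and bars are stage means; ZP3 climbs from a mean of 12769 to 69342 FPKM, SPARC, CTSB and EIF4A2 decline, and the ATP6 mean of F1 is set by 1 library at 14247 FPKM.

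SPARC (ENSGALG00000004184, chromosome 13) encodes a secreted, collagen-binding protein of the extracellular matrix. Its level was 8825, 7330 and 8911 FPKM in F5, 7042, 9183 and 7794 in F4, 7607, 6137 and 6787 in F3, 7396, 6960 and 3458 in F2, and 4258, 4447 and 4594 in F1. All F1 libraries lay below all F5, F4 and F3 libraries, and in F2 the third library alone was below the F1 level. The fitted log2 change was -0.93 (SE 0.29, limma adjusted p = 0.0139) and -0.55 after scaling (adjusted p = 0.16). It was the only member of the list of basement membrane and matrix genes that could be read.

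CTSB (ENSGALG00000030016, chromosome 3), the lysosomal cysteine protease cathepsin B, had means of 1179 ± 142 FPKM in F5 and 818 ± 241 in F1, where the libraries (1096, 695 and 662) overlapped with those of F5. Its change of -0.59 was at the threshold (SE 0.23, limma adjusted p = 0.0476) and was -0.21 after scaling (adjusted p = 0.467). The call of CTSB was lost when any of 9 of the 15 libraries was left out, namely the first and the third of F5, the first and the second of F4, the second and the third of F3, the third of F2, and the second and the third of F1.

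Of the translation factors, EIF4A2 (ENSGALG00000008684, chromosome 9), an RNA helicase of the cap-binding complex, had 795, 960 and 957 FPKM in F5, 890, 874 and 639 in F4, 861, 605 and 827 in F3, 420, 627 and 583 in F2, and 729, 597 and 593 in F1. Its lowest mean was in F2 and not in F1. The fitted log2 change was -0.63 (SE 0.21, limma adjusted p = 0.0235; -0.25 and 0.368 after scaling), and the call was lost without the second or the third F5 library or the first F2 library. EEF1A, which delivers aminoacyl-tRNA to the ribosome, had a change of -0.35 (adjusted p = 0.428), and 0.02 after scaling. Of the ribosomal proteins RPS3A, RPS10, RPL6, RPL23 and RPLP1, 0 of 5 were called by limma (0 at an unadjusted p under 0.05), with changes from -0.48 to -0.24 and a median of -0.31, close to the -0.37 of all genes. After scaling they ran from -0.11 to 0.14, with a median of 0.06. Genes of like level had higher medians, -0.15 (0.22 after scaling) from 100 to 1000 FPKM and -0.12 (0.25) over 1000 FPKM.

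The remaining nuclear genes were not called. The chaperones CALR, PPIB and HSP90AA1, which fold proteins in the endoplasmic reticulum or, for HSP90AA1, in the cytosol, had log2 changes of 0.28, -0.09 and 0.10 (0.65, 0.29 and 0.47 after scaling). TXN, the redox protein thioredoxin, and FTH1, the heavy chain of the iron store ferritin, had -0.57 and 0.17 (-0.19 and 0.54 after scaling). TXN would be called without the third F4 library (-0.64, limma adjusted p = 0.0483). ACTB and GAPDH, which often serve as reference genes, had -0.53 (adjusted p = 0.0767) and 0.03 (adjusted p = 0.935) as deposited and -0.16 and 0.40 after scaling. ACTB was called without the second F2 library (-0.60, limma adjusted p = 0.0465). APLP2, a membrane protein related to the amyloid precursor, had -0.31 as deposited and 0.07 after scaling.

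**Figure D4:**
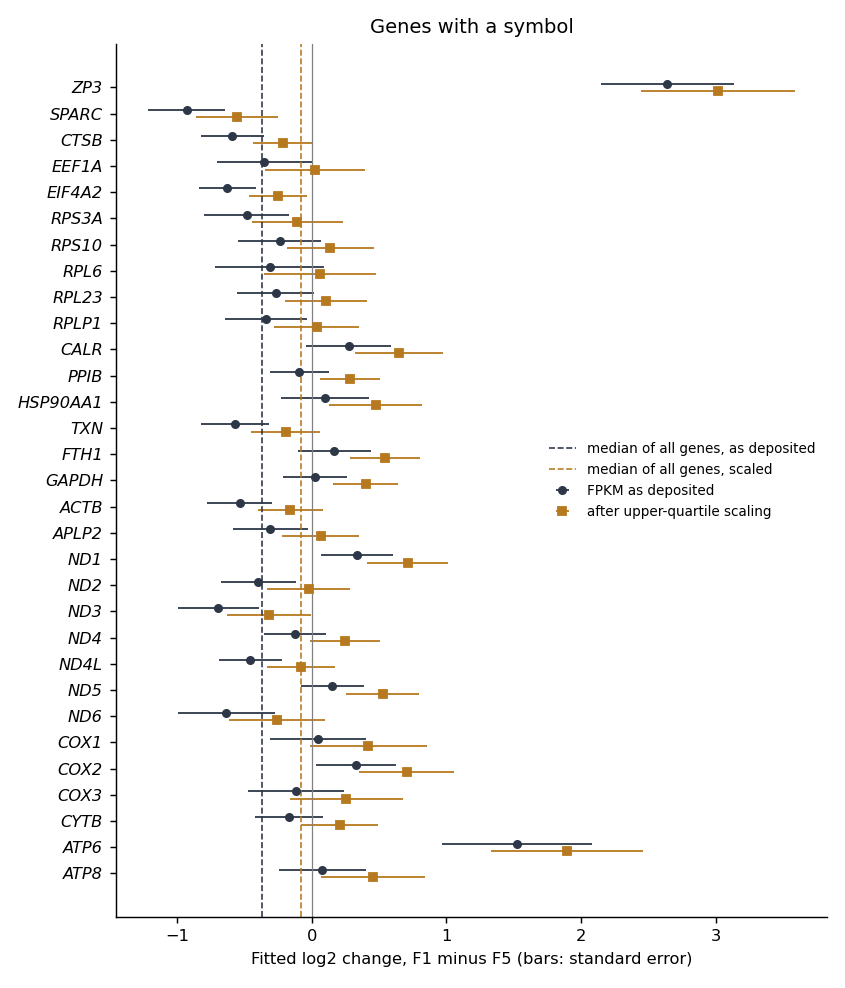
Fitted log2 change from F5 to F1 of the 31 genes with a symbol, as deposited (circles) and after upper-quartile scaling (squares), with bars of 1 SE. Dashed lines are the medians of all 12510 genes at -0.37 and -0.08; ZP3 and ATP6 lie to the right, and most other genes lie within 1 log2 unit of 0.

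The mitochondrial genome encodes 13 subunits of the respiratory chain and of ATP synthase, and all 13 could be read. Of these 1 rose, 0 fell and 12 were not called. Their median log2 change was -0.12 (0.26 after scaling), against -0.37 (-0.08) for all genes. The 44 genes with a mean over 1000 FPKM, most of these subunits among them, had nearly the same medians, -0.12 and 0.25. The difference from all genes is therefore not particular to the mitochondrial genes. The 7 subunits of complex I, which takes electrons from NADH, ran from -0.69 in ND3 to 0.34 in ND1, and 0 were called. ND3 had the lowest limma adjusted p among them (0.0669), from a mean of 4528 ± 272 FPKM in F5 to 2673 ± 427 in F1 with no overlap. It was called without the third F4 library (-0.77, limma adjusted p = 0.0487) or without the first F3 library (-0.69, limma adjusted p = 0.0422). ND1 ran the other way, from 4477 ± 667 to 6002 ± 1258 FPKM, and did not pass (adjusted p = 0.307; 0.0693 after scaling), but was called under median-of-ratios scaling (0.79, limma adjusted p = 0.0459). The cytochrome oxidase subunits COX1, COX2 and COX3 had changes of 0.05, 0.33 and -0.12 as deposited and 0.42, 0.71 and 0.26 after scaling. CYTB of complex III had -0.17 and 0.21, so that the sign of COX3 and of CYTB turned with this scaling. Under quantile normalization COX1, COX2, COX3 and CYTB had -0.74, -0.28, -0.62 and -0.34, and none was called. The sign of COX1 and of COX2 thus depended on the normalization as well.

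ATP6 (ENSGALG00000041091), a membrane subunit of ATP synthase, was the single call among the 13 mitochondrially encoded subunits, and it was set in large part by 1 library. Its level was 807, 994 and 1199 FPKM in F5, 935, 841 and 1410 in F4, 1319, 1191 and 1364 in F3, 1165, 994 and 1290 in F2, and 14247, 1752 and 1740 in F1. The first F1 library stood far above all others, and the remaining F1 libraries were still above every library of the 4 earlier stages. The fitted log2 change was 1.52 (SE 0.56, limma adjusted p = 0.0327; 1.90 and 0.0141 after scaling). Without the first F1 library it was 0.66 (adjusted p = 0.0357), and without the first F5 library it was no longer called (1.51, adjusted p = 0.0585). In the 5 libraries with Q30 above 93, which leave the first F1 library out, it was 0.44 and not called (adjusted p = 0.491). ATP8, the neighbouring subunit gene, had 18719, 19722 and 19276 FPKM in F1 and a change of 0.08. ATP6 overlaps ATP8, and ND4L overlaps ND4, on the mitochondrial genome, so how their shared fragments were divided makes these levels uncertain. A mitochondrial gene without a symbol and outside the 13 subunits, ENSGALG00000036956, was not called as deposited (0.95, limma adjusted p = 0.0891). It was called after upper-quartile scaling (1.32, limma adjusted p = 0.0423), and also under median-of-ratios scaling (1.40) and quantile normalization (1.04). Its kind of transcript is not given. Were it an rRNA, its level would also depend on the rRNA depletion of each library, which was not tested.

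Calls were distributed unevenly over the range of expression. Of the genes with a mean of up to 1 FPKM 7.83% rose and 22.9% fell, and of those from 5 to 20 FPKM 7.48% rose and 36.6% fell. Of the 44 genes over 1000 FPKM 25% rose and 20.5% fell. After upper-quartile scaling the rising share was 10.3% in the lowest class and 29.5% in the highest, and the falling share 17.3% and 4.55%. On both scales the rising share was higher among abundant genes than among rare ones.

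More genes dropped below the detection limit used here than passed it. As deposited, 488 of the 12510 genes kept were above 0.5 FPKM in all 3 F5 libraries and in none of F1, and 126 showed the reverse. After scaling these counts were 400 and 171. Of the 488, 341 were still above 0.5 FPKM in all F4 libraries, 96 in all F3 and 38 in all F2 libraries. The largest drop in this count lay between F4 and F3. Their median level in F5 was 2 FPKM, and that of the 126 genes in F1 was 1.63 FPKM, and the highest stage means were 163 and 43.1 FPKM. Of the 126, 3 were above it in all F4, 18 in all F3 and 29 in all F2 libraries.

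The set of the 100 most abundant genes was exchanged gradually. Neighbouring stages shared 92 (F5 and F4), 93 (F4 and F3), 86 (F3 and F2) and 84 genes (F2 and F1), and F5 shared 71 with F1. Of the 29 genes found among the 100 in F1 but not in F5, 22 rose (28 after scaling) and 0 fell, and of the 29 found in F5 but not in F1, 13 fell (8 after scaling) and 0 rose. Of all genes 9.6% rose and 32.7% fell, but membership at 1 end alone nearly fixes the direction of these genes, and nothing is read from their calls. None of these genes has a symbol, which was fixed in advance, since symbols were known only for genes among the 100 at every stage. Over all 5 stages 137 genes were among the 100 at least once, and 80 of them were not called.

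Since Q30 differed between libraries and F5 had none above 93, the direction was also read in libraries not used for the call. In the 10 libraries with Q30 under 93, 684 genes rose (5.47%) and 2138 fell (17.1%), or 22.6% in all. The other 5 libraries, from F4 to F1, called 164 rising (1.31%) and 512 falling genes (4.09%), or 5.4%, on their own. In them 563 of the 684 (82.3%) had a positive slope, with a median fitted log2 change of 0.89 against 1.56 in the first group. Both groups give slopes over 4 rank steps, which for these 5 libraries extends to an F5 they do not hold. The sizes are therefore not compared over the same stages. Of the 2138 falling genes 2042 (95.5%) had a negative slope, with a median of -1.13 against -1.34. Over all genes 75% had the same sign in both groups. Genes that were positive but not called in the first group kept their sign in 53.8%, and negative ones in 79.2%. After upper-quartile scaling the shares were 87.2% of 969 rising and 94.3% of 1275 falling genes, against 70.5% of all genes. With a term for the Q30 group in the fit of all 15 libraries, 964 genes rose and 3242 fell. In that fit CTSB (-0.32, limma adjusted p = 0.219) and EIF4A2 (-0.60, limma adjusted p = 0.0569) were no longer called. ZP3 (2.32), ATP6 (1.71) and SPARC (-0.80, limma adjusted p = 0.04999) stayed called. The part of Q30 in the trend beyond these values was not tested.

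**Figure D5:**
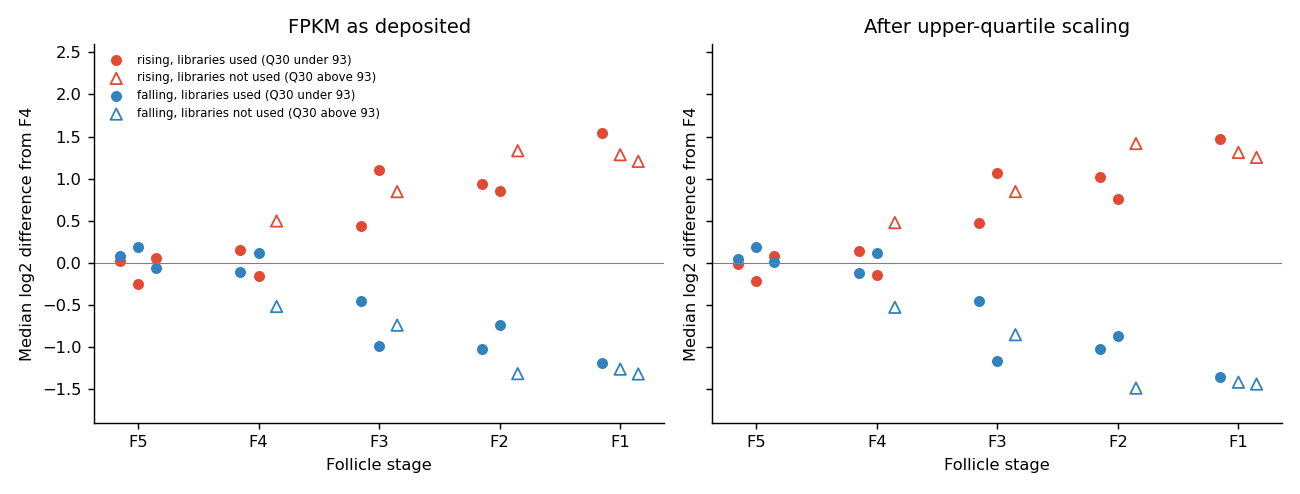
Median log2 difference of each library from the mean of the first and second F4 libraries, over the genes called rising or falling in the libraries with Q30 under 93, as deposited and after upper-quartile scaling. Filled circles are the 10 libraries used for the call and open triangles the 5 not used; in F1 the triangles of the rising genes lie at 1.28 and 1.21 and those of the falling genes at -1.26 and -1.32 as deposited.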

How the data were processed

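Granulosa layers of 15 libraries (F5 to F1, 3 each) were analysed. After read cleaning, which also took out rRNA, the authors aligned with HISAT2 2.1.0 (build GRCg6a), and deposited the FPKM values that StringTie 1.3.3 gave. FPKM hold no read counts, so the depth behind a value is unknown, and the count of fragments was not analysed here.

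A gene was kept if 2 or more libraries of 1 stage exceeded 0.5 FPKM. Values were transformed to log2(FPKM + 1), so changes of low genes are understated. Slopes on rank (F5 = 1 to F1 = 5), stage contrasts and departures from a line were fitted with limma 3.58.1 (eBayes with trend, two-sided) in R 4.3.3, with Benjamini-Hochberg adjustment over the genes kept, and checked on simulated data. Calls needed an adjusted p under 0.05 and a fold over 1.5. Library quantities were tested by two-sided permutation (100000 resamples) in Python 3.11.15. Upper-quartile scaling divided each library by its 75th percentile over the genes kept.

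The genes named are 35 that the study's table pairs with an identifier (a further gene of it is not reported here), plus the 2 identifiers with the largest rise and 2 with the largest fall. Members, lists and rules were chosen with earlier results of these data known. Alternatives covered scaling, pseudocount, filter, follicle diameter, sequencing group, replicate block, end stages and single libraries. The RefSeq table (GRCg7b) carries no Ensembl identifiers, so symbols, positions and sequences are not given beyond that table.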

Additional observations from a re-analysis of the deposited data

How the results depend on the processing

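The counts of rising and falling genes moved with the libraries used and with the scaling. Fits on fewer libraries have less power, so their counts are not ranked against those of the scaling. The share of decreases among calls, 77.3% in the full fit, was 75.8% with Q30 under 93 and 75.7% above 93. Without F1 it was 79.6%, and without F5 78.8%. It was 56.1% with upper-quartile scaling, 50.8% with median-of-ratios scaling and 50.5% with quantile normalization. The scaling took the counts to 2123 and 2189 with median-of-ratios scaling and 2120 and 2159 with quantile normalization, beside the 1902 and 2431 of upper-quartile scaling. The counts were 684 and 2138 in the 10 libraries with Q30 under 93, 164 and 512 in the 5 above 93, and, after upper-quartile scaling, 969 and 1275 and 155 and 211 in these groups. After upper-quartile scaling without the third F2 library 1753 rose and 2234 fell. Without the stage F1 719 genes rose and 2797 fell, and without F5 745 and 2777. Leaving out single libraries gave 1039 to 1258 rising and 3613 to 4295 falling genes, 1 to 1146 genes over the 4 steps (6 in the full fit) and 0 to 96 departing from a line. No call of a gene changed direction under any setting of these fits. They share libraries with the full fit, so a call in the opposite direction could hardly occur and nothing is read from this. Deviations of samples with the same replicate number had correlations from -0.40 to 0.48 (30 pairs, median 0.05). Those with different numbers ran from -0.60 to 0.41 (60 pairs, median -0.03). With 3 libraries per stage this cannot exclude shared hens, and the numbers were not taken to pair the samples. With the replicate block 1187 genes rose and 4116 fell, 26 were called over the steps, and after upper-quartile scaling 1888 rose and 2445 fell. ND3 would be called with the block (-0.69, limma adjusted p = 0.0473).

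Among the genes named, CTSB had a change of 0.15 (upper-quartile scaling, Q30 under 93 alone) and EIF4A2 one of 0.038 (upper-quartile scaling, Q30 above 93 alone), opposite to the values reported and not called. The slope of summed FPKM per rank was 9372 in the libraries with Q30 under 93 (adjusted permutation p = 0.119), 12594 above 93 (0.0556) and 8568 without F1 (0.144). In the 5 libraries above 93 the slopes of genes above 0.5 FPKM (-222), of the upper quartile (-1.28) and of the top 100 share (2.42) gave adjusted permutation p-values of 0.0556, 0.0556 and 0.0625. The causes were not tested. The pseudocount, the filters, follicle diameter in place of rank, all 30 libraries in the fit and the moderation left the counts of rising and falling genes within 1.5 times, but some ended calls of named genes. With no filter ZP3 (adjusted p = 1.0), SPARC (0.64), ATP6 (0.0967) and CTSB (0.0805) were not called by limma, with all 30 libraries ATP6 (0.163) and CTSB (0.155) were not, and with diameter CTSB (0.057) was not. With no filter the fitted change of ZP3 stayed at 2.64, while its SE was 8.51 against 0.49 in the full fit. The upper-quartile fits without the third F2 library and within the Q30 groups were chosen after seeing the data. The depth behind single FPKM values is unknown and limits the low genes most.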

Other observations

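The genes of the trend were also read in the stages on either side of the hierarchy, LYF, the largest prehierarchical follicles, and the postovulatory follicles (POF), with levels scaled to the upper quartile. Of the 1198 genes rising under both scalings, 79.9% had a lower mean in POF than in F1, against 40.2% of all genes, with a median log2 difference of -1.07. Of the 2431 falling genes 15.9% were lower in POF than in F1, with a median of 0.76, and 71.7% were still below their F5 mean in POF (46.0% of all genes). F5 and F1 are the end points of the trend and were used to choose these genes, so a difference from either toward the other side is in part built into these counts. Between LYF and F5, 59.8% of the rising and 57.2% of the falling genes were lower in LYF, close to the 55.4% of all genes.

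ZP3 had 10340 ± 2587 FPKM in LYF and 3831 ± 5333 in POF (SD, n = 3), with 1101 ± 354 in SWF, the smallest follicles, and all of these means lay below that of F5. The high spread of ATP6 was not limited to F1, with 7264 ± 10000 FPKM in SWF and 7415 ± 11536 in POF.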
